A study of Mus musculus with 36 samples.

Results

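Liver transcripts of mice without the hepatocyte insulin receptor were compared between ZT16, in the dark phase, and ZT8, in the light phase. The members were the 6 arrays labelled as knockout ZT16 and the 6 labelled as knockout ZT8, 12 of the 36 arrays of the series, grouped by label. ZT (Zeitgeber time) counts hours from lights-on, and lights went off at ZT12. Knockout mice carried a floxed exon 4 of Insr and a tamoxifen-inducible Cre recombinase under the transthyretin (Ttr) promoter, on the C57BL/6J background. All were males of 11 weeks with free access to a standard diet and no further treatment, and each array read total RNA of 1 liver. The time of the tamoxifen treatment is not in the labels, and they leave unsaid whether the controls, with an intact Insr, also carried the Cre. Of the other arrays, 6 knockouts at ZT12 lay between the compared times, and 12 controls at ZT8 and ZT16 served to ask whether a change differed between genotypes. That the arrays are separate mice rests on the labels, so the p-values measure the spread between these samples.

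In the liver clock, CLOCK and BMAL1 (the product of Arntl) activate genes through E-boxes, among them those of their own repressors, the PER and CRY proteins and REV-ERB (Nr1d1, Nr1d2). REV-ERB proteins repress and ROR proteins activate Arntl and Nfil3 through a shared element, the RORE. The PAR bZIP factors Dbp, Tef and Hlf, opposed by Nfil3, act on D-boxes and pass the rhythm on to metabolic genes. The liver is also driven by signals from the body, such as feeding, insulin, glucocorticoids and temperature, and mice eat mostly in the dark. The comparison asks which of these light to dark changes the liver makes when hepatocytes lack the insulin receptor.

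The promoter sequences below are shown because the genes behind them carry the largest groups of changes, the clock and the heat shock response. RefSeq promoters on GRCm38.p6 were at hand for 15 of the 18 clock genes tested and 15 of the 20 heat shock and cold response genes. Each line gives the 250 bases before the annotated start, 5′ to 3′ along the gene, with exact matches in capitals. Motifs were searched on both strands. The E-box CACGTG was found in 5 of the 15 clock promoters and is shown for Ciart, Tef, Cry1 and Per1. The D-box TTATGTAA was found in 1 of the 15 clock promoters and is shown for Per3. The RORE TAGGTCA, here on the reverse strand, was likewise found in 1 and is shown for Nfil3. The heat shock element GAANNTTC was found in 7 of the 15 heat shock promoters and is shown for Hspa1b, Hspb1 and Fkbp4.
Ciart, chr3:95882229-95882478, - strand: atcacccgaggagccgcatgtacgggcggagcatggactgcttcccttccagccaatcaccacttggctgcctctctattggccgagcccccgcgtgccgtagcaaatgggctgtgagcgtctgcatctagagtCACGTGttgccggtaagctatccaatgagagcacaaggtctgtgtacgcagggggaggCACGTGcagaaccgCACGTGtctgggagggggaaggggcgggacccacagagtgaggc
Tef, chr15:81802423-81802672, + strand: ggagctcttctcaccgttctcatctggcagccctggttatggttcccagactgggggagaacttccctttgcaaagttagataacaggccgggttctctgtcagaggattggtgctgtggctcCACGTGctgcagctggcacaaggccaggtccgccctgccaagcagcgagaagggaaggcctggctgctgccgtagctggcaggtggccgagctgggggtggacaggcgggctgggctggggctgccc
Cry1, chr10:85185055-85185304, - strand: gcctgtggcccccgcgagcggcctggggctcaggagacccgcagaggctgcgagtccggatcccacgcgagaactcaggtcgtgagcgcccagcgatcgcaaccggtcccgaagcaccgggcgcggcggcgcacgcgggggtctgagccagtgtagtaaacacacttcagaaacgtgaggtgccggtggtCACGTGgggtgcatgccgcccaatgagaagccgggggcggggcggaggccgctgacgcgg
Per1, chr11:69098699-69098948, + strand: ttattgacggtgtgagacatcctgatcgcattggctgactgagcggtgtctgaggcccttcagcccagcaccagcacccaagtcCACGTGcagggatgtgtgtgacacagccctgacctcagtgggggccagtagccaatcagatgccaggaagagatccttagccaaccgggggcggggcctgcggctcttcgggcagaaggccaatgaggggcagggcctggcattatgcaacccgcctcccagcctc
Per3, chr4:151044666-151044915, - strand: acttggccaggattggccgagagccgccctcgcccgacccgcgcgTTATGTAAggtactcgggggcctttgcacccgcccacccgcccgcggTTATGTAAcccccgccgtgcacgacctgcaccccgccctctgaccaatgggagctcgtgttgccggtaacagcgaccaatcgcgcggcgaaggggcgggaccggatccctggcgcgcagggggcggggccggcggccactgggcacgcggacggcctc
Nfil3, chr13:52981040-52981289, - strand: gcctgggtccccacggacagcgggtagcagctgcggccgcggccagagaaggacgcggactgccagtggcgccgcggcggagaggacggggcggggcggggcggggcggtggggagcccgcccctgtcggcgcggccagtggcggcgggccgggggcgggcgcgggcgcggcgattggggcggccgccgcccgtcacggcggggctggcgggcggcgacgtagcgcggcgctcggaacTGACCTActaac
Hspa1b, chr17:34959239-34959488, - strand: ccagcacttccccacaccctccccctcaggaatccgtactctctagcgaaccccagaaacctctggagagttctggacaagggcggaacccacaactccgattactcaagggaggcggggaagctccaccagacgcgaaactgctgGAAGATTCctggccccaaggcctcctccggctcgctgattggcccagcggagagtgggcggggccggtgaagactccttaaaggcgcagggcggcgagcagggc
Hspb1, chr5:135887669-135887918, + strand: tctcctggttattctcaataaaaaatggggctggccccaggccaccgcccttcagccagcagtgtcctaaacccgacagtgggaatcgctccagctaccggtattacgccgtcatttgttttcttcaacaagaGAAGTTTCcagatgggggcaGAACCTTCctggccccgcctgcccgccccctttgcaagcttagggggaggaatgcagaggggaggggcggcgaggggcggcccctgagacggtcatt
Fkbp4, chr6:128438657-128438906, - strand: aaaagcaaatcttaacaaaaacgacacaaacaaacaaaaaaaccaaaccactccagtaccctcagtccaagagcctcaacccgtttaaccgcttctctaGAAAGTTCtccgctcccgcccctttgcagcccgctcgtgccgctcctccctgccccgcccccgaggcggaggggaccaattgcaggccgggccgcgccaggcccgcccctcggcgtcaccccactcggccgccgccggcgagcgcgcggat

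Ciart held 3 E-boxes, starting 116, 58 and 44 bases before its start. Those of Tef, Cry1 and Per1 lay 127, 60 and 166 bases before the start, and the D-boxes of Per3 lay 205 and 158 bases before it. Over all 32851 promoters of the table, 6.02% held the E-box, 0.819% the D-box, 2.23% the RORE and 6.69% the heat shock element. Among tested genes with a promoter in the table, 11.9% of those that fell and 8.72% of those that rose held the E-box, against 8.97% of all. In the same order the shares were 6.03%, 6.51% and 6.52% for the heat shock element. For the RORE they were 2.16%, 2.17% and 2.29%, and for the D-box 0.91%, 0.398% and 0.794%. These shares were not tested. A match describes these letters and is neither a bound site nor a cause.

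Expression is given as log2 signal relative to the array's 75th percentile, so that 0 is the level of the 75th percentile spot. Levels of different genes are not comparable, since each rests on its own probe. On the 12 arrays, 55.8% to 63.1% of spots were well above background, and the 75th percentile signal was 331 to 495 intensity units. Arrays give no counts, so their number limits the precision. All 10 hepatocyte markers, such as Alb and Ttr, were well above background on every one of the 12 arrays. The summed level of these markers was 11.7 to 12.4 at ZT8 and 12.2 to 12.3 at ZT16 (log2). Insr, the deleted gene (probe on chromosome 8, 3155472 to 3155531, mm9), read -3.54 to -2.94 in the ZT8 knockouts and -3.75 to -3.08 in the ZT16 knockouts. Its change of -0.08 (SE 0.13) was not called (limma adjusted p 0.727). The exon read by a probe was not determined here.

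1 array of the knockouts at ZT8, replicate 3, did not resemble the remaining 5, and each main count is given with and without it. Over the 1231 genes that were called and at least 2-fold without this array, each array was placed on a line from the mean of the other ZT8 knockouts (0) to that of the ZT16 knockouts (1). Replicate 3 stood at 0.465, where the other ZT8 knockouts stood at -0.0535 to 0.0801 and the ZT12 knockouts at 0.428 to 0.652. The ZT16 knockouts stood at 0.917 to 1.08. Control livers stood at 0.261 to 0.370 at ZT8 and 0.750 to 0.860 at ZT16, and since the genes were chosen for a large knockout change, nothing is read from that span. Of its clock genes, Dbp read 5.98 and Nr1d1 0.24, above every ZT12 knockout (at most 3.79 and -2.99). Others stood apart from the remaining ZT8 arrays: Bhlhe40 read 2.05 against 2.81 to 3.13, Nr1d2 2.89 against 3.39 to 3.65, and Nfil3 0.34 against 1.63 to 2.06. Bhlhe40 and Nr1d2 were lower at ZT16, so their values lay toward ZT16. Nfil3 was higher at ZT16, so its value lay away from it. Replicate 3 was the ZT8 array nearest the ZT16 mean for 496 of the 993 genes with a 2-fold change described next.

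**Figure D1:**
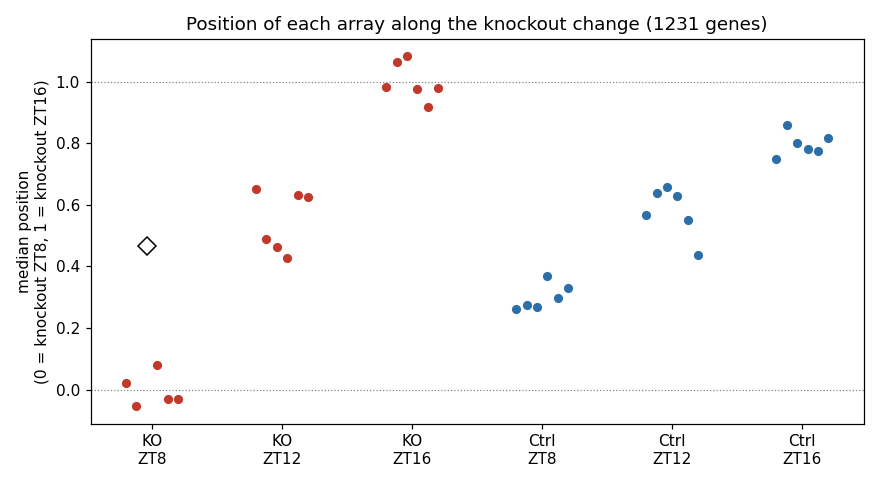
Median position of each of the 36 arrays along the knockout ZT8 to ZT16 change, over 1231 genes; each point is 1 array and the open diamond is knockout ZT8 replicate 3. That array stands at 0.465, among the ZT12 knockouts. The genes were chosen on the 5 other ZT8 and the 6 ZT16 knockouts, so those end positions, and a shorter span in controls, follow from the choice.

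Between ZT8 and ZT16, 6607 of 22892 tested genes (28.9%) changed in the knockout liver at a limma adjusted p under 0.05, and these are the genes called below. Of them, 3536 rose (15.4% of all tested) and 3071 fell (13.4%). With each array centred on its median in place of the 75th percentile, 2404 rose and 3752 fell, so the share of rises among the calls (53.5%) fell to 39.1%. The median absolute log2 change of called genes was 0.52. A change of at least 2-fold was found for 993 genes, with 611 rises and 382 falls, and one of at least 4-fold for 127, with 73 rises and 54 falls. The count of 2-fold changes was 343 under another background correction (normexp) and 469 in the authors' deposited table. The 6 ZT16 arrays lay wholly above the 6 ZT8 arrays for 1336 genes (5.84% of those tested) and wholly below for 928 (4.05%).

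Without ZT8 replicate 3, 7498 genes were called, 3841 up and 3657 down, and 1231 were at least 2-fold changed. The calls shared with the full set numbered 6198, none of opposite sign; 409 were called only with the array and 1300 only without it. At ZT12 the mean of the knockouts lay between those of ZT8 and ZT16 for 888 of the 993 genes with a 2-fold change. It lay beyond the ZT16 mean for 53 and beyond the ZT8 mean for 52. The median ZT12 position was 0.497 of the way, with 440 genes nearer ZT16 and 448 nearer ZT8. These genes were chosen for a large gap between ZT8 and ZT16, and that choice favours a ZT12 mean between the 2.

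All 18 clock genes tested were called between ZT8 and ZT16: 5 rose and 13 fell, 1 of the falls (Bhlhe41) on a probe below background, with a median log2 change of -0.996 against 0.01 over all genes tested. Their groups did not overlap for 5 rises and 10 falls, where 5.84% and 4.05% of all genes tested did so. The calls and directions were the same without replicate 3, where the median was -1.11. One listed gene, Npas2, was not tested. Arntl and Clock of the activator arm rose, and among the repressors and output factors Cry1 and Nfil3 rose while the others named below fell.

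Of the activators, Arntl read -6.79, -5.04 and -3.98 at ZT8 and 0.40, 0.60 and 0.91 at ZT16 (lowest, median and highest of 6, an order used for all levels below). Every ZT16 array lay above every ZT8 array, with ZT12 between at -1.22 to -0.31. The rise of 5.76 (SE 0.33, adjusted p 6.82e-14) is no measured size, since the probe was well above background on only 2 of the 6 ZT8 arrays. Clock, whose product pairs with BMAL1, read 0.36, 0.62 and 0.82 at ZT8 and 1.80, 1.95 and 1.99 at ZT16. It rose by 1.30 (SE 0.08, adjusted p 5.92e-13), with no overlap and a ZT12 median of 1.39.

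Among the repressors, Ciart, which encodes a repressor of CLOCK and BMAL1, read -0.93, -0.58 and -0.19 at ZT8 and -7.25, -6.66 and -5.49 at ZT16. Its probe was well above background on all 6 ZT8 arrays and on none at ZT16 (fitted change -5.94, adjusted p 5.01e-15). In the main processing Ciart was at least 22.2-fold lower at ZT16. This bound sets the ZT8 mean against the lowest signal well above background on each ZT16 array. The log2 change was -2.28 under normexp and -3.14 in the authors' deposited table. Both are smaller falls than the bound, which therefore holds for the main processing only. Per3 read -0.58, -0.09 and 0.49 at ZT8 and -3.39, -2.84 and -2.58 at ZT16, a fall of 2.80 (SE 0.16, adjusted p 7.53e-14) without overlap. Per1, an immediate responder to glucocorticoids and other signals, read 3.28, 3.88 and 4.16 at ZT8 and 1.24, 1.73 and 2.85 at ZT16.

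The ZT12 knockouts still held Per1 at 3.07 to 4.27, within or near their ZT8 range, so its fall of 1.92 (SE 0.21, adjusted p 2.64e-08) was seen only after ZT12. Per2 read 1.51, 2.13 and 2.38 at ZT8 and 0.74, 1.09 and 1.75 at ZT16. The groups overlapped, and the change of -0.77 (SE 0.16, adjusted p 2.88e-04) was -0.50 with its probes averaged. Between wash batches the change ran from -1.37, in a batch with 1 ZT8 knockout, to -0.12, in a batch where replicate 3 was 1 of 2. Cry2 fell by 0.95 (SE 0.10, adjusted p 3.23e-08), or 0.47 with its probes averaged, and its ZT16 arrays lay within 2.96 to 3.12. Cry1, the repressor that peaks latest in the cycle, went the other way and rose by 1.93 (SE 0.21, adjusted p 2.56e-08), from a median of -3.91 to -2.07. It had reached -1.97 at ZT12. The rise was 0.90 under normexp and 1.20 in the authors' deposited table. Bhlhe40, a further repressor at E-boxes, fell by 1.04 (SE 0.13, adjusted p 2.15e-07). Its relative Bhlhe41 was not well above background on any of the 12 arrays, and its call (-1.27, adjusted p 0.00111) carries no size. It was lost under normexp (-0.22, adjusted p 0.0820) and with only the compared groups fitted (adjusted p 0.0792).

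In the REV-ERB and ROR loop, Nr1d1 read 0.19, 0.42 and 0.97 at ZT8 and -4.60, -3.84 and -3.04 at ZT16, with no overlap. The fall of 4.32 (SE 0.25, adjusted p 8.27e-14) was largely complete at ZT12, where the arrays read -3.81 to -2.99. Nr1d2 read 2.89, 3.50 and 3.65 at ZT8 and -0.30, 0.32 and 0.43 at ZT16, a fall of 3.20 (SE 0.17, adjusted p 2.46e-14). Its ZT12 median was 2.17, nearer the ZT8 level, where that of Nr1d1 was nearer ZT16. Rora changed by -0.28 (SE 0.09, adjusted p 0.0109) with overlapping groups, a call lost without ZT16 replicate 4 (adjusted p 0.0520) and with only the compared groups fitted (0.0697).

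Among the output factors, Dbp (probe on chromosome 7, 52965265 to 52965324, mm9) read 5.98, 6.59 and 6.77 at ZT8 and 0.21, 0.60 and 0.87 at ZT16. It fell by 5.88 (SE 0.24, adjusted p 4.12e-17), and by 5.81 to 6.12 within the 3 wash batches. The ZT12 arrays, at 2.83 to 3.79, were in between and overlapped neither time. Tef read 6.24, 6.98 and 7.14 at ZT8 and 4.34, 4.79 and 5.08 at ZT16, a fall of 2.10 (SE 0.12, adjusted p 8.27e-14) without overlap. Hlf fell by 0.82 (SE 0.16, adjusted p 1.92e-04). Nfil3, their antagonist, rose by 2.12 (SE 0.19, adjusted p 1.10e-09), from 0.34, 1.79 and 2.06 to 3.37, 3.74 and 4.19, and had reached 3.18 at ZT12.

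**Figure D2:**
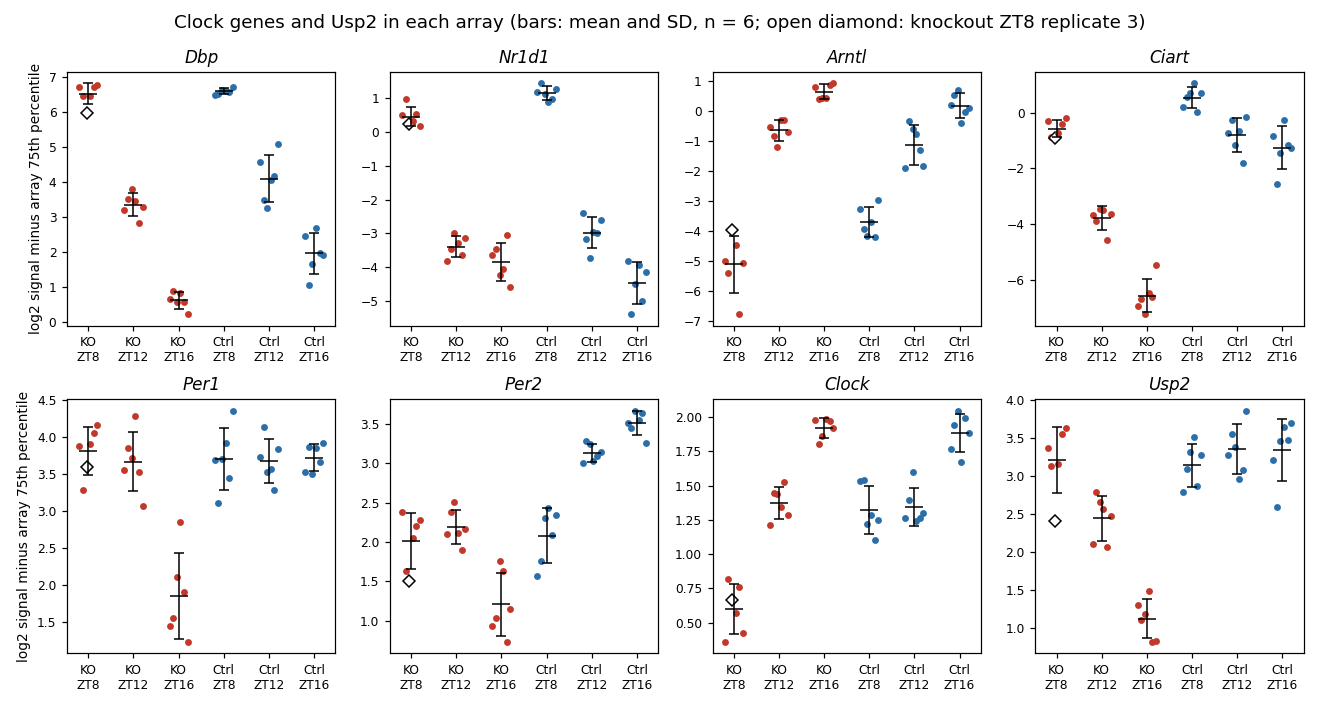
Level of 7 clock genes and Usp2 on each array, as log2 signal minus the array's 75th percentile, for knockout (red) and control (blue) livers at the 3 times; bars are mean and SD of 6 arrays and the open diamond is knockout ZT8 replicate 3. Dbp, Nr1d1 and Ciart fell in the knockout without overlap between ZT8 and ZT16, Arntl and Clock rose, and Per1, Per2 and Usp2 fell in the knockout and were not called lower in control. Arntl at knockout ZT8 and Ciart at knockout ZT16 lie near background, and Nr1d1 at control ZT16 reaches such levels.

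The change of 13 of the 18 clock genes differed between knockout and control (difference of the ZT16 minus ZT8 change, adjusted p under 0.05), where 9.75% of all tested genes did so. The knockout change was the more positive in 4 (5.44% of all) and the more negative in 9 (4.31%). Arntl and Bhlhe41 among the 4 and Ciart among the 9 touch background in the knockout. In controls, 6 clock genes rose and 9 fell, where 13.4% of all genes rose and 13.2% fell, and the control median was -0.17. Per2 changed in opposite directions, by -0.77 in the knockout and 1.39 in control, a difference of -2.16 (SE 0.22, adjusted p 3.21e-07). Dbp fell further in the knockout, by a difference of -1.22 (SE 0.34, adjusted p 0.0186). Per1 changed by -1.92 against -0.04 in control, a difference of -1.87 (SE 0.29, adjusted p 9.78e-05).

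Per3 differed by -1.75 (SE 0.23, adjusted p 8.46e-06), Tef by -1.48 (SE 0.17, adjusted p 1.86e-06), Nr1d2 by -1.05 (SE 0.24, adjusted p 0.00476) and Hlf by -0.91 (SE 0.23, adjusted p 0.00906). In each of these the knockout change was the more negative. Clock rose more in the knockout, by a difference of 0.73 (SE 0.12, adjusted p 1.30e-04), and Nr1d1 fell less, by 1.29 (SE 0.36, adjusted p 0.0183). At control ZT16 Nr1d1 read as low as -5.39, among the levels at which Arntl lay near background, so the size of its difference is uncertain. No difference was detected for Cry1 (-0.46, adjusted p 0.385) and Nfil3 (0.29, adjusted p 0.597). Bhlhe40 (-0.40, adjusted p 0.170) passed only without replicate 3, with an adjusted p of 0.0112.

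**Figure D3:**
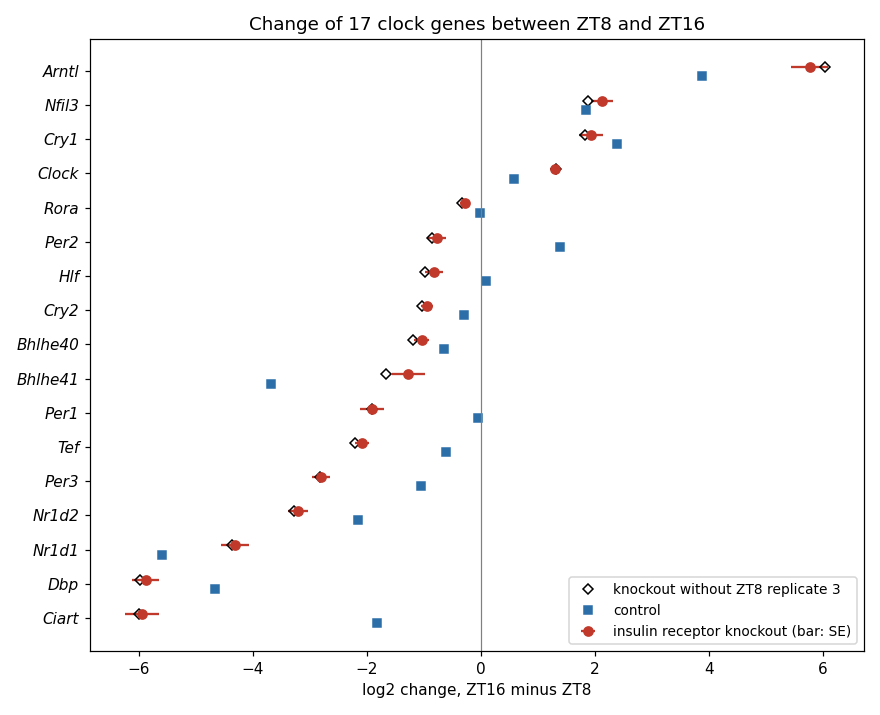
Log2 change from ZT8 to ZT16 of 17 clock genes, ordered by the knockout value; red circles are knockout (bar SE), open diamonds the knockout without ZT8 replicate 3, and blue squares control. Leaving out replicate 3 moved none of these genes across 0, and Per2 lies on opposite sides of 0 in knockout and control. The values of Arntl, Ciart and Bhlhe41 in the knockout touch background and are not measured sizes.

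Of the genes whose change was most different between genotypes, Usp2, a deubiquitinase gene with strong rhythm in liver, read 2.42, 3.26 and 3.63 at ZT8 and 0.83, 1.15 and 1.48 at ZT16. It fell by 2.06 (SE 0.18, adjusted p 1.25e-09) in the knockout and changed by 0.16 in control, a difference of -2.21 (SE 0.26, adjusted p 1.98e-06). Wee1, the kinase that restrains entry into mitosis and is driven by E-boxes, read -0.72, 0.00 and 0.36 at ZT8 and -3.48, -2.80 and -2.43 at ZT16. Its fall of 2.73 (SE 0.18, adjusted p 2.28e-12) compared with a change of -0.55 in control (difference -2.19, SE 0.26, adjusted p 2.10e-06). Both genes had no overlap between knockout times.

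Over all genes, the change differed between knockout and control for 2233, or 3250 without replicate 3, with 2155 in both. Of the 6607 genes called in the knockout, 1395 (21.1%) also had such a difference. In 843 of these the control value had the other sign, with the control itself called in 262; in 433 it had the same sign and the knockout change was larger, and in 119 smaller. A further 838 genes differed without being called in the knockout, and 765 of them were called in control. Of the 993 genes with a 2-fold change, 714 had no difference past the threshold, and 470 of these were called in control in the same direction.

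The glycogen and glycolysis list had 4 rises and 9 falls among 16 genes, where 15.4% and 13.4% of all genes rose and fell. Its median change was -0.45 against 0.01 over all genes. Without replicate 3 there were 4 rises and 11 falls. With all arrays, 6 of the 16 genes differed in their change from control (9.75% of all genes). Ppp1r3g and Ppp1r3c, which encode subunits that bring protein phosphatase 1 to glycogen, moved in opposite directions. Ppp1r3g (probe on chromosome 13, 36061999 to 36062058, mm9) read 4.00, 5.71 and 5.93 at ZT8 and 0.71, 1.63 and 2.19 at ZT16. The lowest ZT8 value was that of replicate 3. It fell by 3.88 (SE 0.43, adjusted p 3.60e-08), and by 4.53 in control, which was no detected difference (0.65, SE 0.60, adjusted p 0.590). Its level was lower in control at both times, with -1.76 to 1.19 at ZT8 and -6.73 to -4.45 at ZT16, outside the knockout ranges of those times. The control values at ZT16 reach the levels at which Arntl and Ciart lay near background. The control fall and the difference of the change may therefore not be measured sizes.

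Ppp1r3c (chromosome 19, 36806457 to 36806516, mm9) read -0.62, 0.21 and 0.45 at ZT8 and 1.91, 2.69 and 3.18 at ZT16. Its rise was 2.58 (SE 0.32, adjusted p 3.12e-07), and at ZT12 it read 0.11 to 1.47. Control livers held 1.85 to 3.05 at ZT8 and 2.49 to 3.26 at ZT16, so the knockout lay below the control range at ZT8 and overlapped it at ZT16 (difference of the change 2.33, SE 0.46, adjusted p 9.57e-04). Gys2, the liver glycogen synthase, read 6.55, 7.50 and 7.60 at ZT8 and 5.71, 5.81 and 6.00 at ZT16, a fall of 1.52 (SE 0.13, adjusted p 5.14e-10) without overlap. In control it changed by -0.08, and the difference was -1.43 (SE 0.18, adjusted p 6.29e-06).

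Further members are named here after their values were seen. The branching enzyme Gbe1 fell by 0.88, the glucose transporter Slc2a2 by 1.08 and the phosphatase subunit Ppp1r3b by 0.45, and each differed from control.

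Of 26 genes of fatty acid oxidation and other PPARα targets, 14 fell and 0 rose (of all genes 13.4% fell), with a median of -0.44. With only the compared groups fitted 8 fell. Without replicate 3, 19 fell, and the median was -0.70. In control 4 rose and 2 fell, with a median of 0.04, and 5 members had a more negative change in the knockout (4.31% of all genes). Ppara itself, the nuclear receptor that responds to fatty acids, read 5.04, 5.92 and 6.49 at ZT8 and 4.74, 4.92 and 5.11 at ZT16. Only replicate 3, at 5.04, lay in the ZT16 range, and the fall was 0.97 (SE 0.15, adjusted p 5.58e-06).

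Cpt1a, which lets fatty acids into mitochondria, fell by 0.72 (SE 0.13, adjusted p 7.18e-05), with replicate 3 the lowest ZT8 array at 5.11 and a highest ZT16 array of 5.12. Bdh1, of ketone body metabolism, read 5.67, 6.15 and 6.45 at ZT8 and 5.07, 5.21 and 5.37 at ZT16, a fall of 0.89 (SE 0.10, adjusted p 8.09e-08) without overlap. In control it fell by 0.85. Acot3, Acot4 and Acot5 encode acyl-CoA thioesterases, and Acot5 was named for its difference, outside the list. Acot3 read 1.04, 2.82 and 4.53 at ZT8 and -0.08, 0.56 and 0.97 at ZT16, and changed by -2.19 in the knockout and 0.99 in control (difference -3.17, SE 0.66, adjusted p 0.00187).

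Acot4 differed by -1.95 (SE 0.29, adjusted p 4.64e-05) and Acot5 by -2.75 (SE 0.54, adjusted p 0.00102). The knockout fall of Acot5 (1.42) was 0.72 with its probes averaged, and its call was lost with only the compared groups fitted (adjusted p 0.0758). These are neighbouring paralogs, so signal shared between their probes cannot be told apart from separate changes. Angptl4, the lipoprotein lipase inhibitor (named after its value was seen), fell by 1.76 (SE 0.39, adjusted p 7.97e-04) in the knockout. The hormone gene Fgf21, likewise named afterwards, fell by 2.19 (SE 0.52, adjusted p 0.00149) and by 2.65 in control.

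**Figure D4:**
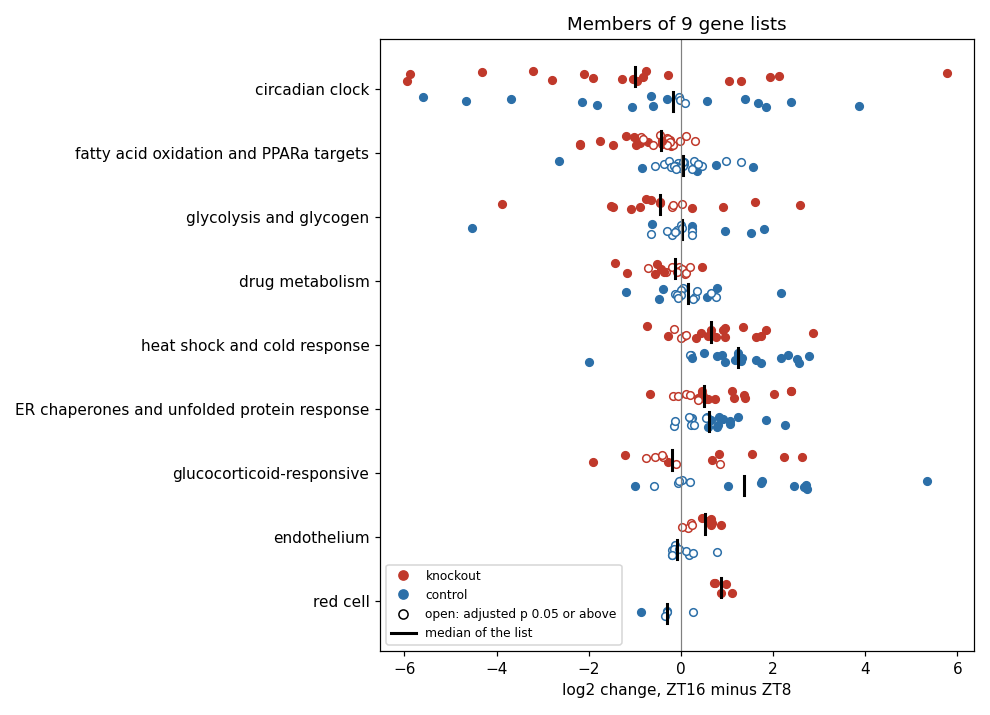
Log2 change from ZT8 to ZT16 of the members of 9 gene lists in knockout (red) and control (blue); each point is a gene, filled where its adjusted p was under 0.05, and the black bar is the list's median. The fatty acid oxidation, glycolysis and glycogen and drug metabolism lists had negative medians in the knockout, the heat shock list rose less than in control, and endothelial and red cell markers had 6 of 10 and 5 of 5 rises called in the knockout and 0 in control. Of all genes tested, 15.4% rose and 13.4% fell in the knockout. The list medians carry no test.

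Fatty acid synthesis, a programme that insulin and sugar induce, showed 2 rises and 4 falls among 16 genes (median -0.12). Of all genes 15.4% rose and 13.4% fell. With only the compared groups fitted 0 members rose and 3 fell. Me1, which supplies NADPH, fell by 1.37 (SE 0.24, adjusted p 4.65e-05), Acaca, the cytosolic acetyl-CoA carboxylase, by 0.61 (SE 0.14, adjusted p 0.00108), Pklr, the liver pyruvate kinase, by 0.87 (SE 0.24, adjusted p 0.00599, or 0.0730 with only the compared groups fitted), and Gpam, the first enzyme of glycerolipid synthesis, by 0.71 (SE 0.21, adjusted p 0.0108). Fasn and Scd1 were not called. Cholesterol synthesis and uptake had 2 rises and 6 falls among 24 genes, where 15.4% and 13.4% of all genes rose and fell. Its median of -0.28 was -0.079 without ZT8 replicate 1, -0.44 without ZT8 replicate 6 and -0.027 with probes averaged, and 0 rose under median centring.

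Stard4, a sterol carrier, fell by 0.89 (SE 0.10, adjusted p 2.46e-08) without overlap, and by 0.71 in control. Fdft1, squalene synthase, fell by 0.71 (SE 0.15, adjusted p 3.42e-04). Of 16 genes of bile acid synthesis and transport, 4 rose and 2 fell (median 0.04), where 15.4% and 13.4% of all genes did. Nr1h4, the bile acid receptor FXR, read 4.24, 5.15 and 5.36 at ZT8 and 3.83, 4.05 and 4.32 at ZT16.

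Replicate 3 again gave the lowest ZT8 value of Nr1h4, and the fall was 0.96 (SE 0.13, adjusted p 1.67e-06), against -0.07 in control (difference -0.89, SE 0.19, adjusted p 0.00217). Hsd3b7, an enzyme early in bile acid synthesis, rose by 0.54 (SE 0.10, adjusted p 6.65e-05) without overlap while control fell by 0.84, a difference of 1.37 (SE 0.14, adjusted p 2.87e-07). Baat, which conjugates bile acids, rose by 0.71 (SE 0.12, adjusted p 2.33e-05), and Amacr, which acts in side chain shortening, fell by 0.39 (SE 0.08, adjusted p 5.29e-04). Cyp7a1, the rate-limiting enzyme, had a change of 0.85 (SE 0.35) that was not called (adjusted p 0.0665).

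Of the heat shock and cold response genes, 14 of 20 rose and 2 fell, where 15.4% and 13.4% of all genes did, with a median of 0.66. In control 17 rose and 1 fell, with a median of 1.24, and 13 of the 20 had a more negative change in the knockout (4.31% of all genes). The groups did not overlap for 10 of the rises (5.84% of all genes). Hsph1, a partner of HSP70, read 1.61, 2.22 and 2.63 at ZT8 and 3.46, 3.77 and 4.25 at ZT16. It rose by 1.63 (SE 0.17, adjusted p 1.09e-08), less than the 2.78 in control (difference -1.15, SE 0.24, adjusted p 0.00166).

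Hsp90aa1, the inducible HSP90, rose by 1.34 (SE 0.13, adjusted p 2.59e-09), with a difference of -0.82 (SE 0.18, adjusted p 0.00266). Stip1, which links HSP70 and HSP90, rose by 0.92 (SE 0.08, adjusted p 2.29e-10), or 0.59 with its probes averaged, with a difference of -0.39 (SE 0.11, adjusted p 0.0161). For Hspb1, a small heat shock protein, the rise of 1.74 (SE 0.18, adjusted p 1.55e-08) did not differ past the threshold from that of control (-0.58, adjusted p 0.167). Hspa8, the constitutive HSP70, is named after its value was seen: it read 5.63, 6.20 and 6.34 at ZT8 and 6.59, 6.79 and 7.00 at ZT16, rising by 0.66 (SE 0.09) against 1.63 in control (difference -0.98, SE 0.13, adjusted p 1.29e-05). Cirbp, the cold-inducible RNA-binding protein gene, also named afterwards, fell by 0.74 (SE 0.14, adjusted p 8.92e-05) and by 2.00 in control. Hspa1a and Hspa1b are near-identical copies, and their probes may share signal.

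The chaperones of the endoplasmic reticulum rose as widely, with 14 of 20 up and 1 down (15.4% and 13.4% of all genes) and a median of 0.50. In control 12 rose and 0 fell, and only 1 gene of this list, Herpud1, differed between genotypes (9.75% of all genes). Sdf2l1 read 0.17, 0.55 and 1.28 at ZT8 and 2.73, 2.83 and 3.49 at ZT16, a rise of 2.40 (SE 0.26, adjusted p 3.60e-08). Creld2 rose by 2.39 (SE 0.27, adjusted p 4.38e-08), from 3.06, 3.33 and 4.20 to 5.33, 5.68 and 6.37. Both encode proteins that are induced when unfolded proteins build up, and neither had overlapping groups.

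Manf, a secreted protein of the same response, rose by 2.02 (SE 0.22, adjusted p 2.33e-08), and its ZT8 values were 1.87, 1.97 and, in replicate 3, 3.39. Hspa5, the main chaperone BiP, rose by 1.37 (SE 0.14, adjusted p 1.30e-08) and Edem1, of the disposal of misfolded glycoproteins, by 1.14 (SE 0.08, adjusted p 2.22e-11). The differences from control were 0.77, 0.30 and 0.35 for these genes (adjusted p 0.113, 0.399 and 0.0602). Without replicate 3 those of Manf (1.05, adjusted p 0.00455) and Edem1 (0.40, adjusted p 0.0197) passed.

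Of 14 glucocorticoid-responsive genes, 5 rose and 3 fell (median -0.20), where 15.4% and 13.4% of all genes did. In control 8 rose and 1 fell, with a median of 1.37, and 7 had a more negative change in the knockout (4.31% of all genes). Ddit4, an inhibitor of mTORC1, read 0.52, 1.00 and 2.42 at ZT8 and 2.44, 3.55 and 3.84 at ZT16 and rose by 2.24 (SE 0.35, adjusted p 1.01e-05), near the 2.68 of control. Klf9 fell by 1.22 (SE 0.18, adjusted p 3.13e-06) and by 1.00 in control. Sgk1, a kinase gene, rose by 1.55 (SE 0.28, adjusted p 6.62e-05) without overlap, whereas control changed by -0.06 (difference 1.61, SE 0.39, adjusted p 0.00726).

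Fkbp5 and the metallothionein Mt2 are named after their values were seen. Fkbp5 read 1.91, 2.48 and 3.37 at ZT8 and 1.48, 2.50 and 2.86 at ZT16, with no call in the knockout (-0.12, adjusted p 0.788) and a rise of 2.73 in control. Mt2 changed by -0.55 (adjusted p 0.422) and rose by 2.45 in control. The differences were -2.84 (SE 0.35, adjusted p 3.62e-06) and -3.00 (SE 0.66, adjusted p 0.00276).

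**Figure D5:**
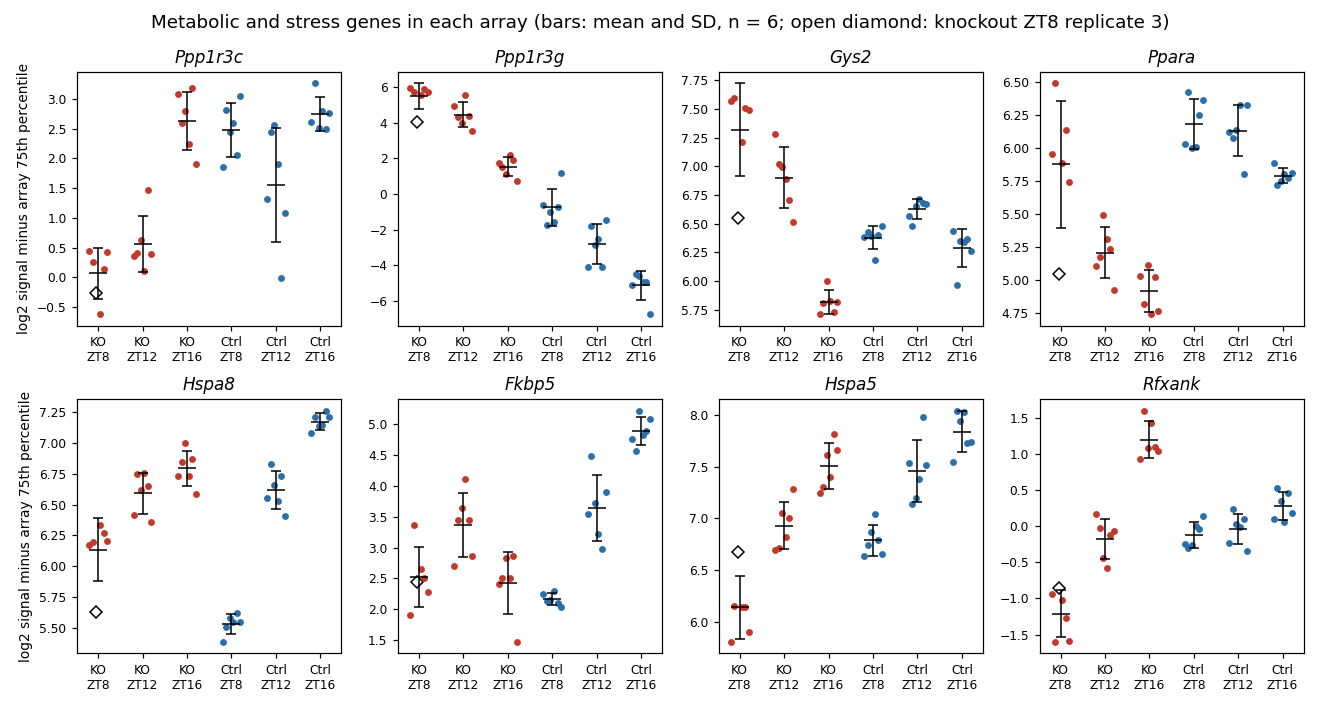
Level of 8 metabolic and stress genes on each array, as log2 signal minus the array's 75th percentile, for knockout (red) and control (blue) livers; bars are mean and SD of 6 arrays and the open diamond is knockout ZT8 replicate 3. Ppp1r3c and Rfxank rose and Gys2 fell from ZT8 to ZT16 in the knockout with no overlap, Hspa8 and Hspa5 rose in both genotypes, and Fkbp5 rose in control only by its calls. The open diamond lies toward the ZT16 values for Ppp1r3g, Gys2 and Ppara. Ppp1r3g at control ZT16 reaches levels near background.

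Gluconeogenesis and FoxO targets had 2 rises and 2 falls among 14 genes (median -0.19), near the shares of all genes: Tat, which breaks down tyrosine, rose by 0.83 (SE 0.17, adjusted p 4.31e-04), Sesn3 by 0.36 (SE 0.09, adjusted p 0.00331, or 0.0695 under median centring), and Foxo3 fell by 0.44 (SE 0.10, adjusted p 9.19e-04). Fbp1 fell by 0.28, a call (adjusted p 0.0304) that was lost without ZT16 replicate 1, 2 or 3 and without ZT8 replicate 1 or 2 (adjusted p 0.0541 to 0.0942). Pck1 and G6pc, the rate-limiting enzymes of gluconeogenesis, changed by -0.31 and -0.42 and were not called (adjusted p 0.190 and 0.375). Of 17 insulin signalling genes, 3 rose and 7 fell (median -0.10), where 15.4% and 13.4% of all genes did. Under median centring 0 rose and 7 fell, and with only the compared groups fitted 1 rose and 4 fell.

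Pik3r1, the regulatory subunit of PI3-kinase, fell by 0.55 (SE 0.12, adjusted p 7.64e-04) and rose by 0.46 in control (difference -1.01, SE 0.17, adjusted p 2.82e-04). Pdpk1 fell by 0.48 and Tsc1 by 0.41. Growth hormone and IGF1 genes had 0 rises and 1 fall among 12, where 15.4% and 13.4% of all genes rose and fell. That fall was Cish, a feedback inhibitor of the pathway, whose ZT16 arrays spread from -0.32 to 3.57 (change -2.07, SE 0.74, adjusted p 0.0336). The call was lost without any 1 of ZT16 replicates 1, 3 and 5 or ZT8 replicates 4, 5 and 6, with adjusted p of 0.0520 to 0.0963. Igf1, Ghr and Igfbp3 changed by 0.18, 0.17 and 0.41 and were not called. Igf1 and Ghr passed without ZT8 replicate 1 (adjusted p 0.0312 and 0.0170), Igf1 also without ZT8 replicate 5 (0.0340), and Igfbp3 without ZT8 replicate 4 (0.0335). In the authors' deposited table all these genes passed (adjusted p 0.0156, 0.00781 and 0.0483 for Igf1, Ghr and Igfbp3). There the list had 3 rises and 2 falls. Igf1 and Ghr also passed under normexp (0.028 and 0.047), and Ghr under quantile normalization (0.0182).

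Amino acid catabolism and urea cycle genes had 8 rises and 0 falls among 25, where 15.4% and 13.4% of all genes rose and fell. The list median was 0.08, against 0.01 over all genes. Sds and Sdsl, of serine breakdown, rose by 1.14 (SE 0.21, adjusted p 1.28e-04) and 0.87 (SE 0.13, adjusted p 2.92e-06) without overlap, and Hal, of histidine breakdown, by 0.74 (SE 0.15, adjusted p 3.76e-04). With the probes of Sds averaged its change was 0.70 and the call was lost (adjusted p 0.0646). Hal changed by -0.24 in control, a difference of 0.99 (SE 0.22, adjusted p 0.00323). ATF4 and amino acid response genes had 4 rises and 1 fall among 15 (median 0.14), against 15.4% and 13.4% of all genes. Wars (adjusted p 0.0519 with only the compared groups fitted) and Psph rose by 0.52 and 0.54, and Trib3, a pseudokinase that inhibits AKT, fell by 0.92 (SE 0.26) against a fall of 3.09 in control (difference 2.18, SE 0.36, adjusted p 2.10e-04).

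Of 18 drug metabolism genes, 1 rose and 6 fell (median -0.14), where 15.4% and 13.4% of all genes did. A more negative change than in control was found for 6 (4.31% of all genes). Cyp2a5 read 7.84, 8.42 and 8.87 at ZT8 and 6.12, 6.98 and 7.81 at ZT16, with no overlap. It fell by 1.43 (SE 0.19, adjusted p 6.89e-07) and changed by 0.30 in control. Nr1i2, the xenobiotic receptor PXR, fell by 0.52 (SE 0.14, adjusted p 0.00380) and rose by 0.66 in control, the exporter Abcc2 fell by 0.56, and Cyp3a13 rose by 0.45. With only the compared groups fitted the calls of Nr1i2 (adjusted p 0.0529) and Cyp3a13 (0.0508) were lost.

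Autophagy genes had 1 rise and 6 falls among 12 (median -0.15), where 15.4% and 13.4% of all genes rose and fell. Atg14 fell by 1.01 (SE 0.14, adjusted p 1.17e-06), Ulk1 by 0.61 and Bnip3 by 0.65. The rise was Map1lc3b, by 0.29 (adjusted p 4.08e-04), whose value was -0.054 when all its probes were averaged. NAD genes had 2 rises and 6 falls among 12 (median -0.13), against 15.4% and 13.4% of all genes. Nmrk1, which makes NAD from nicotinamide riboside, fell by 1.57 (SE 0.22, adjusted p 1.71e-06) without overlap, Nmnat3 by 0.56 (call lost with probes averaged, adjusted p 0.105) and Sirt1 by 0.47, and Parp1 rose by 0.47. Nampt, named after its value was seen, fell by 0.48 (SE 0.18, adjusted p 0.0418) and rose by 1.20 in control.

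Acute phase genes had 5 rises and 1 fall among 20 (15.4% and 13.4% of all genes), or 2 rises under median centring. The median of 0.10 was -0.015 without ZT16 replicate 2. The fibrinogen genes Fga, Fgb and Fgg rose by 0.74, 0.29 and 0.33 in the knockout and fell by 0.43, 0.28 and 0.30 in control, and each difference was called (1.17, 0.57 and 0.63). Under median centring the knockout calls of Fgb (adjusted p 0.0897) and Fgg (0.0570) were lost. Hamp, which encodes the iron hormone hepcidin, rose by 0.62 (SE 0.14, adjusted p 7.26e-04). Ribosome biogenesis genes had 3 rises and 6 falls among 22 (median -0.13), against 15.4% and 13.4% of all genes. Pes1, Ubtf and Rrn3 fell by 0.37, 0.33 and 0.55, and Rrp12 rose by 0.68. With probes averaged the calls of Ubtf (-0.036, adjusted p 0.760) and Pes1 (0.142) were lost, and that of Rrn3 with slide as a fixed block (0.0899). Of 12 cell cycle genes tested, 0 rose and 3 fell (15.4% and 13.4% of all genes).

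Besides Wee1 these were Ccnd1, cyclin D1, which fell by 1.45 (SE 0.25, adjusted p 3.60e-05) without overlap, and Ccnb2, which fell by 1.23 (SE 0.29, adjusted p 0.00144, or 0.0530 with only the compared groups fitted). The median of the cell cycle list was -0.21, and 0.20 without replicate 3. Birc5, a mitotic gene, read 1.69 in that array and -1.44 to -0.58 in the other ZT8 knockouts. Its change of 0.44 was not called, and without the array it rose by 0.86 (adjusted p 0.0108).

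Of the genes named for the size of their rise, the first were histone genes. H1f2, a linker histone, read 0.26, 0.51 and 2.06 at ZT8 and 3.18, 4.47 and 5.14 at ZT16, with ZT12 between at 1.75 to 3.77. It rose 11.7-fold (log2 change 3.55, SE 0.30, adjusted p 5.24e-10), against 1.00 on the log2 scale in control (difference 2.55, SE 0.43, adjusted p 2.46e-04). The core histones H3c15 and H3c14 rose by 3.47 and 2.30, and by 3.78 and 2.96 in control. Histone genes have near-identical copies, so which copy gave the signal is uncertain.

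Rfxank, which encodes a subunit of the RFX complex of MHC class II promoters, read -1.60, -1.15 and -0.85 at ZT8 and 0.94, 1.09 and 1.60 at ZT16, without overlap. It rose by 2.44 (SE 0.14, adjusted p 4.89e-14), against 0.36 in control (difference 2.07, SE 0.19, adjusted p 9.53e-08). Asap2, an ARF GTPase activator, rose by 2.57 (SE 0.21) with a difference of 1.99 (SE 0.29, adjusted p 4.62e-05). Lgalsl, Misp3 and Camk2n2 rose by 2.93, 2.68 (1.76 under normexp) and 2.30. The differences of these 3 from control did not pass; without replicate 3 those of Lgalsl and Camk2n2 did (adjusted p 0.0475 and 0.0395).

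Among the largest falls outside the clock list, Maff, a small MAF factor, fell by 3.07 (SE 0.27, adjusted p 6.78e-10), Klf11 by 2.52 (SE 0.26) and 4931408D14Rik by 2.40 (SE 0.24), all without overlap. The fall of Klf11 was 1.36 under normexp. Txnip, which rises with glucose and binds thioredoxin, read 4.21, 6.37 and 7.14 at ZT8 and 2.77, 3.70 and 4.00 at ZT16. Replicate 3 was the lowest ZT8 array, and the fall of 2.51 (SE 0.28, adjusted p 6.34e-08) became 2.91 without it. Egr1, an immediate early gene, fell by 2.48 (SE 0.49), and here replicate 3 was the highest ZT8 array (4.07 against 1.81 to 2.63). Rgs16 fell by 2.60 (SE 0.71, adjusted p 0.00536), with ZT16 arrays from 3.39 to 4.65 and 1 array, replicate 6, at -0.98. Without that array its fall was 1.73 (adjusted p 0.0179), and with only the compared groups fitted the call was lost (0.0718).

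Further genes with a large difference from control were St3gal5, a sialyltransferase gene that changed by -0.81 against 1.66 (difference -2.47, SE 0.26, adjusted p 5.84e-07), and Gm826, by -1.37 against 1.49 (difference -2.86, SE 0.43, adjusted p 5.65e-05). Nr4a2, an immediate early nuclear receptor, changed by -2.76 against -0.30 (difference -2.46, SE 0.64, adjusted p 0.0112). Its knockout change ran from -4.73 to -0.88 between wash batches, which held 1 to 3 ZT8 knockouts each. Nim1k rose by 1.07 against a fall of 1.00 (difference 2.07, SE 0.28, adjusted p 1.62e-05), and Spata22 rose by 0.70 against a fall of 1.40 (difference 2.10, SE 0.29, adjusted p 1.63e-05). Under normexp the knockout changes of Nim1k, Spata22 and Gm826 were 0.59, 0.37 and -0.87, and the knockout call of Spata22 was lost with only the compared groups fitted (adjusted p 0.0892).

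Markers of other cell types moved with time in the knockout. All 5 red cell genes tested rose (15.4% of all genes), with a median of 0.86 and a summed level of 8.52 to 9.57 at ZT8 and 9.54 to 10.3 at ZT16 (log2). The near-identical Hba-a1 and Hba-a2 rose by 0.74 and 0.73, Hbb-bt by 1.11 and Alas2 by 0.86, and these 4 differed from control (9.75% of all genes). Of 10 endothelial genes 6 rose (15.4% of all genes), among them Oit3 (0.68, adjusted p 5.15e-05) and Clec4g (0.59, adjusted p 6.06e-05) of the sinusoids, with a list median of 0.52 and summed levels of 5.89 to 6.25 and 6.16 to 6.46. In control 0 of these rose, and 3 of the 10 differed from control in the test of the difference (9.75% of all genes). Their part in the changes above was not tested, and in bulk RNA more cells of a type and more RNA per cell cannot be told apart.

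The counts of the remaining marker lists stand against 15.4% of all genes that rose and 13.4% that fell. In the limma fit, macrophage markers had 0 calls among 10 genes (0 at an unadjusted p under 0.05), and stellate cell and fibroblast markers 0 among 10 (3 unadjusted), or 4 rises without replicate 3. Bile duct markers had 1 rise among 7 (Sox9), lymphocyte markers 1 rise among 5, and neutrophil markers 1 fall among 5. Fat (5 tested, 1 at an unadjusted p under 0.05) and pancreas markers (3 tested, 0 unadjusted) had 0 limma calls, and hepatocyte markers 3 rises among 10 with a median of 0.22. Alb, the gene of albumin, changed by 0.16 (adjusted p 0.119).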

How the data were processed

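Total liver RNA (Cy3-labelled) was read on 1-colour Agilent mouse arrays, scanned and extracted with Agilent Feature Extraction 10.10.1.1 per the submitters' processing notes. The deposited scanner files give an intensity per spot (processed signal) with flags for background, and the authors' deposited table gives normalized log2 values of the same arrays, per the file headers and its values, with its centring not stated. Here the processed signal was put on a log2 scale and the 75th percentile of the spots that are not controls was subtracted array by array. Probes well above background on at least 6 of 36 arrays were kept (34678 fitted), and each gene was read by 1 probe. limma 3.58.1 (R 4.3.3) fitted 6 groups and 3 wash batches on all 36 arrays, with Benjamini-Hochberg adjustment over 22892 genes.

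The members and gene lists were chosen with earlier results of these data known. Named genes were the 12 largest rises and 12 largest falls that were called, well above background, without overlap and held without ZT8 replicate 3; all clock genes; up to 4 per other list by smallest p; the 6 largest differences from control each way; and Insr. Other genes given by name were chosen after their values were seen. Alternatives covered background correction, normalization, the probe filter, batch terms and leaving out each array. The fit was tested on simulated data with the spread of the ZT12 knockouts. It recovered 96%, 82%, 90% and 100% of log2 changes of -2, -1, 1 and 2 (50 genes each), with 17 false calls. An outlying array such as replicate 3 was not simulated. Array numbers limit the precision. A few genes that the rule names are counted in the lists and are not reported here.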

Additional observations from a re-analysis of the deposited data

Results flagged for a closer look

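Levels are log2 signal minus the array's 75th percentile. Within the 6 arrays of a group, the gap of an extreme array from its nearest neighbour passed the critical value of Dixon's test in 28 of 220 groups examined, where chance gives about 1 in 20, or 11. In knockout ZT8 replicate 3 the levels that stood apart were Creld2 at 4.20, Ppp1r3g at 4.00, Nr1d2 at 2.89, Txnip at 4.21, Egr1 at 4.07, Bhlhe40 at 2.05, Nfil3 at 0.34, Gys2 at 6.55, Wars at 3.81, Psph at 0.35, Cyp3a13 at 3.23, Atg14 at 1.45 and Birc5 at 1.69. In knockout ZT16 replicate 6 the levels that stood apart were Rgs16 at -0.98, Txnip at 2.77, Acaca at 3.63, Pklr at -2.76, Fbp1 at 9.16, Igfbp3 at 3.24, Pik3r1 at 0.57 and Nr4a2 at -0.95. In knockout ZT16 replicate 5 the levels that stood apart were Cry2 at 3.12, Amacr at 5.70, Edem1 at 3.84, Wars at 3.95 and Insr at -3.75. In knockout ZT8 replicate 2 the levels that stood apart were 4931408D14Rik at 4.42. In knockout ZT8 replicate 1 the levels that stood apart were Hsp90aa1 at 3.87. 

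The change from ZT8 to ZT16 differed between knockout and control, by the limma test of the difference (adjusted p under 0.05), for 48 of the named genes. Differences are knockout minus control on the log2 scale. The knockout change was the more positive for H1f2 (2.55), Bhlhe41 (2.41), Ppp1r3c (2.33), Trib3 (2.18), Spata22 (2.10), Rfxank (2.07), Nim1k (2.07), Asap2 (1.99), Arntl (1.89), Sgk1 (1.61), Hsd3b7 (1.37), Nr1d1 (1.29), Fga (1.17), Hal (0.99), Sesn3 (0.73), Clock (0.73), Nmnat3 (0.66), Fgg (0.63), Fgb (0.57) and Ulk1 (0.48). The knockout change was the more negative for Ciart (-4.11), Acot3 (-3.17), Gm826 (-2.86), Acot5 (-2.75), St3gal5 (-2.47), Nr4a2 (-2.46), Usp2 (-2.21), Wee1 (-2.19), Per2 (-2.16), Acot4 (-1.95), Per1 (-1.87), Per3 (-1.75), Cyp2a5 (-1.73), Tef (-1.48), Gys2 (-1.43), Dbp (-1.22), Nr1i2 (-1.18), Hsph1 (-1.15), Bnip3 (-1.08), Nr1d2 (-1.05), Pik3r1 (-1.01), Nmrk1 (-0.96), Hlf (-0.91), Nr1h4 (-0.89), Hsp90aa1 (-0.82), Cry2 (-0.65), Ubtf (-0.61) and Stip1 (-0.39). The probe of Bhlhe41 was not well above background on any of the 12 knockout arrays, and those of Arntl at ZT8 and Ciart at ZT16 touch background, so these differences are not measured sizes. Nr1d1 at control ZT16 also reaches levels near background, so the size of its difference is uncertain.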

How the results depend on the processing

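In 25 alternative settings, 12 of which left out 1 array, the 6607 genes called stayed within 1.5 times except with only the compared groups fitted (4316). The count of 2-fold changes (993) was 343 with normexp, 469 in the authors' deposited table and 623 among probes well above background on all 12 arrays. The 2233 genes with a difference from control became 4011 with array weights. Leaving out 1 array gave 5842 to 7498 called genes, 920 to 1231 of at least 2-fold, and 1811 to 3250 differences, each highest without knockout ZT8 replicate 3. Of 116 named genes, 89 kept their call under every alternative and 27 did not. Map1lc3b reversed to -0.054 (adjusted p 0.716) when the probes of a gene were averaged, and the cause was not tested. With the replicate number as a replicate block, 6634 genes were called, 1028 at least 2-fold and 2277 with a difference. Deviations of same-numbered arrays from their group means correlated at -0.204 to 0.101. These values give no sign that the numbers pair the samples, and they cannot exclude a pairing.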
